A study of Mus musculus with 27 samples.

Results

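Skeletal muscle of Gsdme KO mice 14 days (D14) after cardiotoxin injury was compared with WT control muscle that had received no cardiotoxin. Cardiotoxin (CTX), a toxin from cobra venom, kills muscle fibres by breaking their membranes and spares satellite cells, the stem cells from which fibres are rebuilt. Gsdme encodes gasdermin E, which forms pores in the cell membrane after a caspase has cut it. The comparison held 6 of the 27 libraries of the series: 3 libraries titled KO, CTX and Day14, and 3 control libraries. The 3 WT D14 libraries (WT, CTX, Day14) were used to show where the KO muscle differed from injured muscle of the other genotype. All mice were male and the WT mice were C57BL/6J, per the study's methods, and the labels give no age. The KO was global rather than restricted to a cell type, and the genotype field of the KO samples reads "Gsdme knockdown" whereas their titles read KO, so KO here means the libraries so titled. The study's methods name the injured gastrocnemius and a contralateral non-injury muscle collected 24 h after injury, whereas the deposited design text names thigh muscle and an unloaded control. Nothing states that animals were pooled, and the labels do not tie libraries to animals, so the p-values measure the spread between these libraries.

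A muscle fibre destroyed by CTX is cleared by neutrophils and macrophages and is then rebuilt by satellite cells, which pass through a stage with embryonic and neonatal myosins before adult fast or slow isoforms return. Fibro-adipogenic progenitors (FAPs), the resident mesenchymal cells of muscle, lay down matrix during this repair and can become adipocytes. Adult gastrocnemius of the mouse is mostly made of fast glycolytic fibres, which are marked by type IIb myosin, fast troponins and a large supply of glycolytic enzymes.

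Values are TPM, a relative transcript abundance that corrects read counts for gene length and sums to the same total in every library. The KO D14 and control libraries stood in separate tables, which were quantified separately, and 3 WT libraries of day 1 (D1) stood in both tables. Of 55416 Ensembl genes in both tables, 12400 reached 1 TPM in at least 3 of the 6 libraries, 557 of these were dropped because their mean TPM over the WT D1 libraries differed by more than 20% between the tables, and 11843 genes were tested. Genotype, injury, sequencing batch as the study's methods describe it and table all differed between KO D14 and control, and their parts in any difference between these groups cannot be told apart.

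The KO D14 libraries held 12741 to 13261 genes at 1 TPM or more, compared with 11785 to 12033 in control and 12329 to 12996 in WT D14, and the 50 most abundant genes took 55.7% to 57.6%, 57.4% to 60.7% and 57.3% to 61.4% of the TPM. Gsdme was at 1.96, 1.77 and 1.27 TPM in the KO D14 libraries, at 1.55, 2.34 and 1.65 TPM in control and at 1.46, 2.21 and 2.26 TPM in WT D14 (log2 difference -0.09, SE 0.18, adjusted p = 0.744 for KO D14 minus control). The 3 groups overlapped, so that the level of Gsdme did not check the KO label at D14, and gene TPM does not show which exons were read. The tissue label was borne out by adult muscle genes, with Myh4 at 4208 TPM or more and Ckm at 13196 TPM or more in all 9 libraries, whereas all 16 acinar pancreas markers were too low to be tested. The control libraries stood apart from the injured ones whatever the day or genotype: for 1268 genes (10.7%) every control library lay outside the range of all 24 injured libraries, with the control above that range for 62 genes (0.524%) and below it for 1206 (10.2%). Of the 2099 genes called between KO D14 and control, 861 (41%) were of this kind, compared with 407 (4.18%) of the 9744 genes not called. The 24 injured libraries include the 3 KO D14 libraries, so KO D14 and control do not overlap for any gene of this kind. The difference between these shares therefore follows in part from how the genes were defined.

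A total of 2099 of 11843 genes (17.7%) differed between KO D14 and control at an adjusted p under 0.05, of which 1815 (15.3%) were higher and 284 (2.4%) were lower in KO D14, and these are the genes called below. The median of all genes was 0.21 on the log2 scale, and the relative medians below are taken from it. All log2 differences are on log2(TPM + 1), so that changes of weakly expressed genes come out too small. The genes called lower held 26.7% ± 1.08 of the TPM in control and 17.8% ± 0.875 in KO D14, compared with 18.8% ± 0.922 in WT D14 (mean ± SD, n = 3). The split between higher and lower depended on the scaling, with 954 higher and 1101 lower under median-of-ratios scaling, 558 and 717 under quantile normalization, and 1520 and 476 with the 50 most abundant genes removed. All 3 KO D14 libraries lay above all 3 control libraries for 35% of the genes and below them for 6.98%. The total was 574 without control replicate 1, 614 without KO D14 replicate 2, 1001 without control replicate 2 and 1295 without control replicate 3. WT D14 differed from the same control libraries in 1329 genes (11.2%), with 920 higher (7.77%) and 409 lower (3.45%), and the median of all genes was 0.11.

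**Figure D1:**
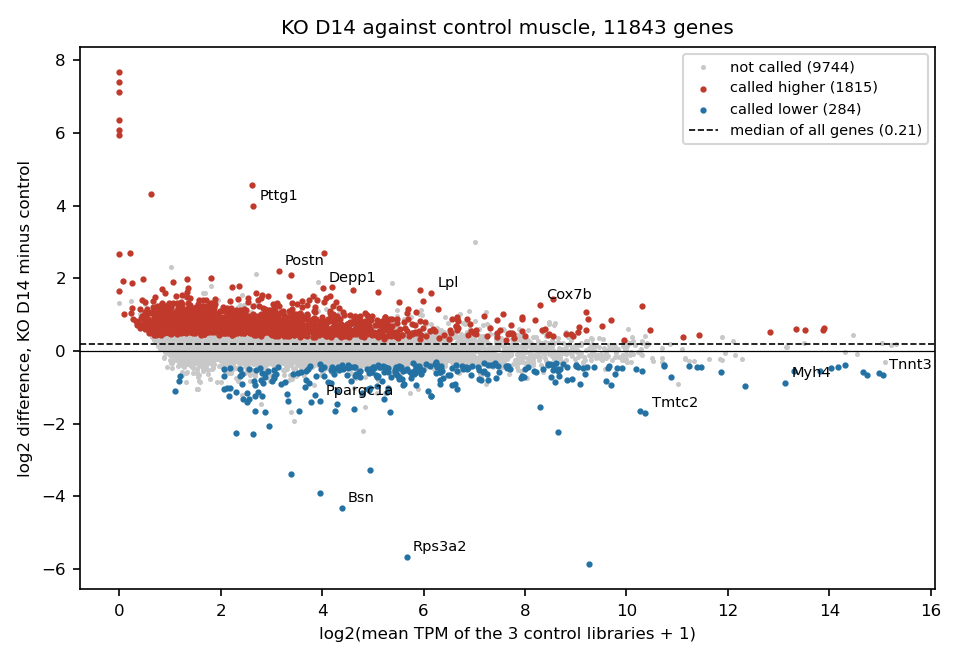
Log2 difference between KO D14 and control, on TPM + 1, against the mean control level for the 11843 genes tested (3 libraries per group), with called genes in red (1815 higher) and blue (284 lower) and the median of all genes as a dashed line at 0.21. The abundant fast fibre genes Myh4 and Tnnt3 lie among the genes called lower at the right, and Rps3a2 and Bsn are the lowest named points.

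The genes that led the comparison included stress-responsive and matrix genes. Ddit4, a stress- and glucocorticoid-induced inhibitor of mTORC1, was at 177, 67.5 and 84.8 TPM in KO D14 and at 12.1, 11.7 and 22.4 TPM in control (log2 difference 2.69, SE 0.35, adjusted p = 0.002). The groups did not overlap, and WT D14 was also above control and overlapped KO D14, at 41.9, 71.2 and 55 TPM. Postn, which encodes the matricellular protein periostin, was at 64.3, 30.5 and 31.6 TPM in KO D14 and at 7.65, 7 and 8.8 TPM in control (log2 difference 2.21, SE 0.47, adjusted p = 0.0137). KO replicate 1 was the highest of the 3, and the WT D14 libraries spread around the KO values at 48.9, 90.5 and 17.3 TPM. Depp1, a target of FOXO transcription factors, was at 40.8, 54.1 and 64.5 TPM in KO D14, 16.5, 14.3 and 14.6 TPM in control and 28, 18.3 and 28.3 TPM in WT D14 (log2 difference 1.72, SE 0.20, adjusted p = 0.00103 for KO D14 minus control). Every KO D14 library was above every library of the other groups, although the difference from WT D14 missed the threshold (log2 difference 1.07, SE 0.20, adjusted p = 0.104). Gadd45g, a stress-induced growth arrest gene, showed the same order, at 212, 188 and 168 TPM in KO D14, at 53, 47.1 and 80.1 TPM in control and at 119, 123 and 119 TPM in WT D14 (log2 difference 1.67, SE 0.17, adjusted p = 0.000624 for KO D14 minus control).

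Other leading rises were Aspn, a small leucine-rich matrix proteoglycan (log2 difference 1.79), Prkg1, the cGMP-dependent kinase (1.97), the endothelial gene Apold1 (1.89), Fasn, fatty acid synthase (1.76), Trp53i11 (1.76) and Smtnl1, a regulator of contraction (1.68). Pttg1, which encodes securin, was at 101, 91.6 and 97.7 TPM in KO D14 and at 6.08, 5.41 and 4.17 TPM in control (log2 difference 3.98, SE 0.15, adjusted p = 1.1e-07), and it lay between 44.4 and 115 TPM over all 24 injured libraries. Rny1, a small noncoding RNA gene, the histone gene H4c17 and a second Ensembl entry with the symbol Ddit3 were called higher and were listed at 0 in all 3 control libraries, and no fold is given for them. With control at 0, they passed the filter of 1 TPM only through the KO D14 libraries, the group in which they were high. In KO D14 Rny1 was at 97, 39.2 and 59.2 TPM and H4c17 at 2.49, 6.32 and 9.35 TPM.

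Among the leading falls, Ppargc1a, the coactivator that drives mitochondrial genes and is induced by activity and fasting, was at 6.15, 4.7 and 4.04 TPM in KO D14 and at 17.5, 11.5 and 14.5 TPM in control (log2 difference -1.37, SE 0.20, adjusted p = 0.00364). WT D14 overlapped KO D14 at 6, 7.15 and 9.25 TPM and was also called lower than control (log2 difference -0.87, SE 0.20, adjusted p = 0.0229). Tmtc2 was at 472, 409.8 and 338 TPM in KO D14 and at 1183, 1354 and 1433 TPM in control (log2 difference -1.71, SE 0.15, adjusted p = 0.000247). Cntfr, the receptor of ciliary neurotrophic factor, was at 5.8, 6.77 and 6.95 TPM in KO D14 and at 36.6, 20.3 and 13.8 TPM in control (log2 difference -1.61, SE 0.30, adjusted p = 0.00858). The control libraries of Cntfr spread widely and still lay above every KO D14 library. The kinase gene Pim1 (log2 difference -1.65), the nuclear receptor gene Nr4a3 (-1.64), the homeobox gene Six2 (-1.47), the retinoid-binding protein gene Rbp7 (-1.67), Cdh4 (-1.67), Htra4 (-1.38) and the histone gene H4c18 (-1.65) followed. The largest falls among the named genes were those of Rps3a2 (log2 difference -5.66), Bsn (-4.33) and Tpm3-rs7 (-3.91). Bsn, a gene of the presynaptic zone, was at 20.9, 21.2 and 17.6 TPM in control and at 0.03, 0.04 and 0.04 TPM in KO D14. None of the 24 injured libraries exceeded 0.61 TPM for Bsn, which passed the filter only through the control libraries. Rps3a2, Rps27rt (-2.23) and Tpm3-rs7 are near copies of other genes, as histone genes are of each other, and the assignment of their reads is uncertain.

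**Figure D2:**
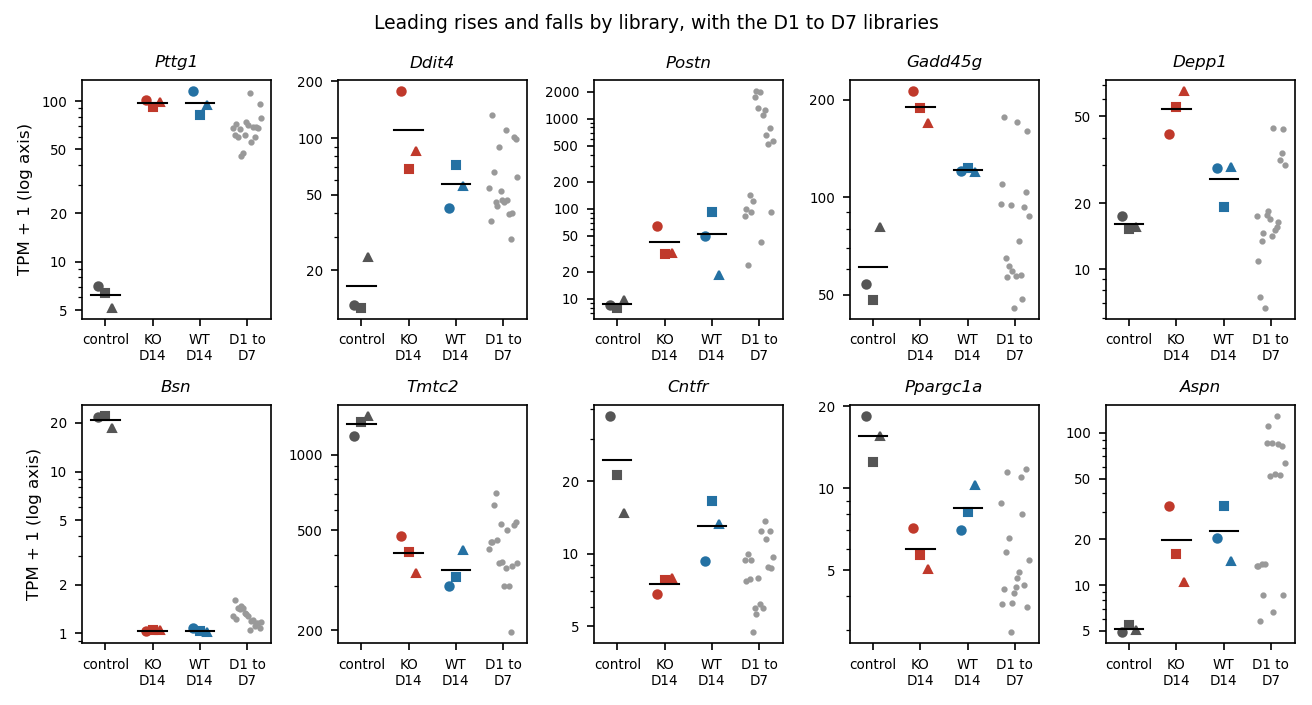
TPM + 1 on a log axis for 10 leading genes in each control, KO D14 and WT D14 library (circle, square and triangle are replicates 1 to 3, the bar is their mean) and in the 18 injured libraries of days 1 to 7 (grey). Control lies outside all other libraries for Pttg1, Ddit4, Postn, Aspn, Bsn, Tmtc2 and Ppargc1a, whereas for Depp1 and Gadd45g the grey libraries reach the control level and for Cntfr a WT D14 library does.

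Genes of adult fast fibres were lower in KO D14 than in control. Of 16 listed and tested, 10 were called lower and none higher, the median log2 difference was -0.56 (-0.77 relative to all genes), and 12 had all KO D14 libraries below all control libraries, against 2.4% called lower and 6.98% lying below among all genes. Myh4, the type IIb myosin heavy chain, was at 4208, 5712 and 4864 TPM in KO D14 and at 9396, 8139 and 9455 TPM in control (log2 difference -0.88, SE 0.14, adjusted p = 0.00491). The highest KO D14 library was well below the lowest control library. Actn3, the fast fibre actinin of the Z line, was at 2586, 2925 and 2538 TPM in KO D14 and at 5512, 5633 and 4449 TPM in control (log2 difference -0.95, SE 0.15, adjusted p = 0.00491). Mybpc2, fast myosin-binding protein C, was at 997, 1335 and 1116 TPM in KO D14 and at 1937, 1807 and 1883 TPM in control (log2 difference -0.72, SE 0.13, adjusted p = 0.00805). Neither gene overlapped between the groups. The kinase gene Mylk2 (-0.70), the fast troponin genes Tnnt3 (-0.67) and Tnni2 (-0.57), Tpm1 (-0.65), the fast regulatory light chain Mylpf (-0.59), the calcium buffer Pvalb (-0.56) and creatine kinase Ckm (-0.43) were the other members called lower. Removal of the 50 most abundant genes left 4 of the 16 members to be tested, of which 2 were called lower. Over the whole list, the number called lower was 9 under quantile normalization, without the filter on low values it was 4, and with all 27 libraries in the fit it was 0. In bulk muscle, fewer cells of a type and less RNA per cell cannot be told apart.

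Fast fibre genes were below control in WT D14 as well. Myh4 was at 4590.0, 4978 and 5576 TPM in WT D14 (log2 difference -0.83, SE 0.14, adjusted p = 0.00737 for WT D14 minus control). In WT D14, 7 of the 16 members were called lower than in control, against 3.45% of all genes, with a median of -0.40. None of the 16 was called between KO D14 and WT D14 (median -0.04). Myh2, the type IIa myosin of oxidative fast fibres, varied more among libraries than between groups, at 545, 357 and 674 TPM in KO D14 and 428, 127 and 506 TPM in control (log2 difference 0.75, SE 0.54, adjusted p = 0.348). The slow myosin gene Myh7 was at 551, 88.6 and 121 TPM in KO D14 and 135, 108 and 329.7 TPM in control (log2 difference 0.10, SE 0.61, adjusted p = 0.923), with KO replicate 1 the highest of the 6 libraries. KO replicate 1 was also the highest KO library for 8 of the 9 slow fibre genes tested. Of these 9 slow fibre genes, Casq2, the calsequestrin of slow and cardiac muscle, was the single call, at 57.4, 39.4 and 35.7 TPM in KO D14 and 14.6, 10.3 and 22.9 TPM in control (log2 difference 1.45, SE 0.25, adjusted p = 0.00629), and the list median was 0.53 (0.32 relative).

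The sequence upstream of Myh4, 1 of the 10 fast fibre genes called lower, is printed as an example. It is the 250 bases before the RefSeq start on the plus strand (GRCm38.p6, chr11:67237562-67237811), with matches to TATAAA and TTGCNNAA on either strand in capitals.
Myh4: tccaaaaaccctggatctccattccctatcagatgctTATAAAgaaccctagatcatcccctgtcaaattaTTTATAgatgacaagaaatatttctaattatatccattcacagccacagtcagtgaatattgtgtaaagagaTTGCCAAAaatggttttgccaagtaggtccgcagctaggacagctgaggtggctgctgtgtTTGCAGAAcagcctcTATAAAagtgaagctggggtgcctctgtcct
TATAAA, the core of a TATA box, was found 213, 179 and 31 bases before the start, and TTGCNNAA, the core pattern bound by C/EBP factors, 107 and 46 bases before it. Of the 32851 mouse promoters in the RefSeq set, 12.4% held TATAAA and 9.56% held TTGCNNAA in the same window, and a match describes letters rather than a bound site.

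Genes of excitation and calcium handling were lower alongside the contractile genes. Of 15 tested, 6 were called lower and none higher, against 2.4% called lower among all genes, with a median of -0.31 (-0.52 relative). Atp2a1, the fast calcium pump SERCA1, was at 5822, 7167 and 7415 TPM in KO D14 and at 11623, 8590.5 and 9913 TPM in control (log2 difference -0.56, SE 0.15, adjusted p = 0.0265). The voltage sensor subunits Cacna1s (-0.55) and Cacng1 (-0.68) and the calcium release channel Ryr1 (-0.57) were also called lower. In WT D14, 3 of the 15 were called lower than control (median -0.39), against 3.45% of all genes. The SERCA inhibitor gene Sln was at 24.1, 4.97 and 6.14 TPM in KO D14 and 10.6, 5.64 and 5.81 TPM in control (log2 difference 0.34, SE 0.62, adjusted p = 0.722), with KO replicate 1 the highest of these 6 libraries.

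Glycolytic and glycogen genes had 5 of 19 members called lower, against 2.4% of all genes, none higher, and a median of -0.26 (-0.47 relative). Pygm, muscle glycogen phosphorylase, was at 2241, 2595 and 2682 TPM in KO D14 and at 3956, 3471 and 3782 TPM in control (log2 difference -0.58, SE 0.11, adjusted p = 0.00805). Gapdh was at 11597, 11733 and 12928 TPM in KO D14 and at 18288, 14997 and 17300.0 TPM in control (log2 difference -0.48, SE 0.12, adjusted p = 0.0204), and Gpi1, which converts glucose 6-phosphate, also fell (-0.47). All KO D14 libraries lay below all control libraries for 10 of the 19, against 6.98% of all genes. The number called lower was 14 under median-of-ratios scaling and 4 under quantile normalization, and none was called higher under any scaling. WT D14 had 4 of the 19 called lower than control (median -0.24), against 3.45% of all genes.

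**Figure D3:**
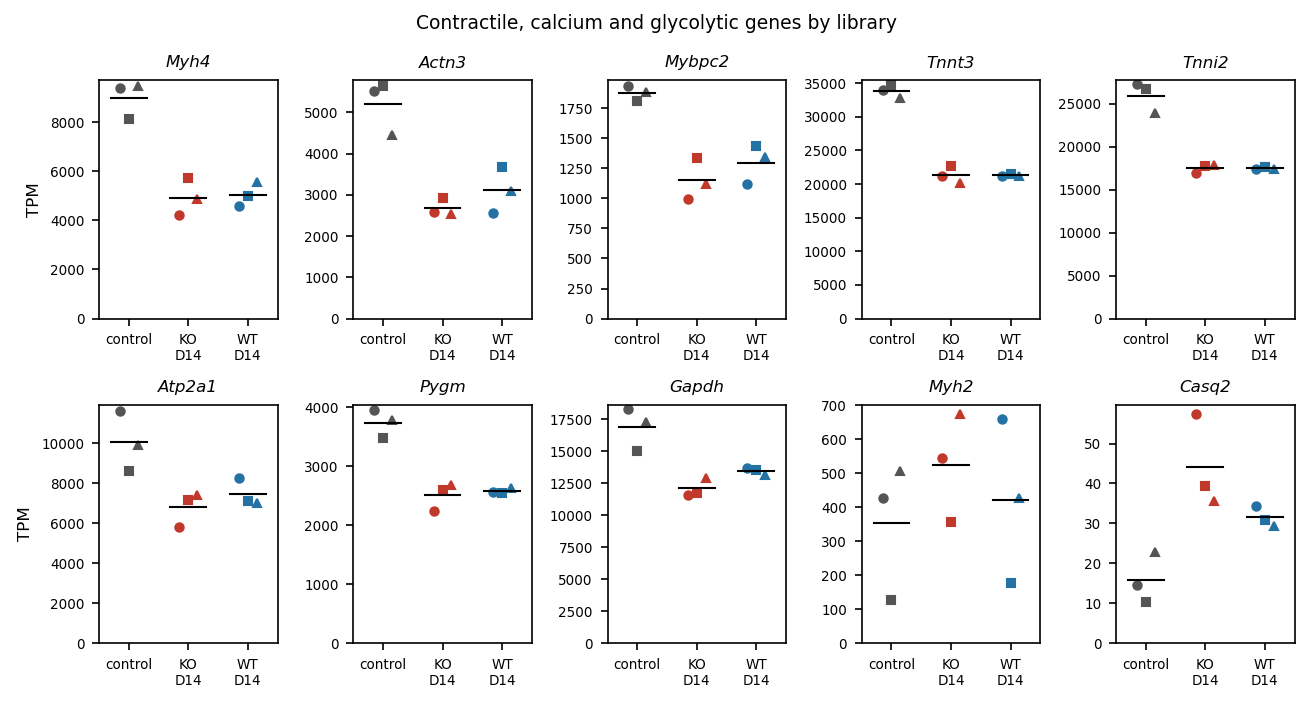
TPM of 10 contractile, calcium handling and glycolytic genes in each library on linear axes that start at 0 (circle, square and triangle are replicates 1 to 3, the bar is the mean). KO D14 lies below control without overlap for Myh4, Actn3, Mybpc2, Tnnt3, Tnni2, Atp2a1, Pygm and Gapdh, Myh2 overlaps, and Casq2 lies above control.

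Oxidative phosphorylation genes did not follow one direction under every scaling. The counts as reported stand against 15.3% called higher and 2.4% called lower among all genes. Those under other scalings stand against other shares. Of the 11843 genes, median-of-ratios scaling called 954 higher and 1101 lower, and quantile normalization 558 and 717. Of 36 complex I genes of the nucleus, 7 were called higher and 1 lower with a median of 0.11 (-0.10 relative), and under median-of-ratios scaling 1 was higher and 1 lower. Cox7b, a subunit of complex IV, was at 786, 729 and 722 TPM in KO D14 and at 328, 289 and 319 TPM in control (log2 difference 1.26, SE 0.10, adjusted p = 6.06e-05). WT D14 lay near KO D14 at 712, 696 and 639 TPM. Of the 36 tested genes of complexes II to V, Cox7b, Cox6c (0.69), Cox7a2 (0.42) and Cox7c were called higher and none lower, with a median of 0.15 (-0.06 relative), whereas 1 was higher and 2 were lower under median-of-ratios scaling, and 3 higher and 1 lower under quantile normalization. Among the 13 genes of the mitochondrial genome, 4 were called higher with a median of 0.27 (0.06 relative), and 1 was called under median-of-ratios scaling. The gene mt-Nd3 was at 3407, 2855 and 2572 TPM in KO D14 and at 1064, 1648 and 1098 TPM in control (log2 difference 1.23, SE 0.18, adjusted p = 0.00364). In WT D14 mt-Nd3 was at 2827, 3295 and 3613 TPM, again above every control library. Fatty acid oxidation genes had 2 of 21 called higher, the electron carrier subunit Etfa (0.88) and the isomerase Eci1 (0.58), with a median of 0.26 (0.05 relative), and 1 was higher and 1 lower under median-of-ratios scaling.

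Of 34 listed adipocyte and lipid storage genes, 30 were tested, 8 were called higher in KO D14 than in control and none lower, against 15.3% called higher among all genes. In WT D14, by contrast, 7 were called lower than control, against 3.45% of all genes. The median of KO D14 minus control was 0.57 (0.36 relative). For 10 of the 30 members all KO D14 libraries lay above all control libraries, against 35% of all genes, and 22 of the 30 were not called. The members called higher were Fasn (1.76), the lipoprotein lipase gene Lpl (1.59), the triglyceride synthesis genes Agpat2 (1.17) and Dgat2 (1.09), the lipogenic gene Thrsp (1.05), the fatty acid carrier Fabp4 (0.86), the fatty acid receptor Cd36 (0.83) and Pparg, the master regulator of adipogenesis (0.67). Under median-of-ratios scaling and under quantile normalization 3 of the 30 were called higher, and none was called lower. The number called higher was 20 without KO D14 replicate 1, 3 without either of the other KO D14 replicates, and 2, 3 and 4 without control replicates 1, 2 and 3.

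Lpl was at 245, 217 and 174 TPM in KO D14 and at 61.8, 62.5 and 85.2 TPM in control (log2 difference 1.59, SE 0.22, adjusted p = 0.00311), and WT D14 was also above control at 223, 119 and 185 TPM (log2 difference 1.29, SE 0.22, adjusted p = 0.00878). Fasn was at 21.4, 161 and 65.8 TPM in KO D14 and at 16.4, 18 and 17.6 TPM in control (log2 difference 1.76, SE 0.53, adjusted p = 0.0435). KO replicates 2 and 3 carried most of the difference in Fasn, and replicate 1 lay just above the control libraries. Fabp4 was at 410.1, 706 and 513 TPM in KO D14 and at 264, 325 and 288 TPM in control (log2 difference 0.86, SE 0.17, adjusted p = 0.011), with WT D14 between them at 343, 372 and 329 TPM. Pparg was at 4.91, 7.89 and 6.05 TPM in KO D14, 3.47, 3.19 and 3.88 TPM in control and 2.64, 4.25 and 3.39 TPM in WT D14.

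The secreted and droplet proteins that define adipocytes showed another pattern, since they were near or above control in KO D14 and far below control in WT D14. Adipoq, which encodes the adipocyte hormone adiponectin, was at 18.2, 72.2 and 48.9 TPM in KO D14 and at 23.1, 32.4 and 30.3 TPM in control (log2 difference 0.49, SE 0.41, adjusted p = 0.413). WT D14 was at 2.65, 4.92 and 2.2 TPM, below every library of the other groups (log2 difference -2.84, SE 0.41, adjusted p = 0.004 for WT D14 minus control). KO replicate 1 lay below the control range and replicates 2 and 3 above it. Plin1, the perilipin that coats lipid droplets, was at 7.5, 25.1 and 18.9 TPM in KO D14, 9.34, 6.73 and 10.2 TPM in control and 1.41, 1.98 and 1.12 TPM in WT D14 (log2 difference 0.77, SE 0.34, adjusted p = 0.14 for KO D14 minus control, and log2 difference -1.96, SE 0.34, adjusted p = 0.00942 for WT D14 minus control). Cfd, which encodes adipsin, was at 268, 1058 and 798 TPM in KO D14, 339, 421 and 302 TPM in control and 41, 70.0 and 45.9 TPM in WT D14 (log2 difference 0.80, SE 0.41, adjusted p = 0.192 for KO D14 minus control, and log2 difference -2.76, SE 0.41, adjusted p = 0.00442 for WT D14 minus control). In each of these genes the KO D14 and control libraries overlapped, and WT D14 lay apart below both.

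Over the 30 members, WT D14 had 1 called higher and 7 called lower than control, with a median of -0.37, and the summed TPM of the list was 3116, 6307 and 4030 in KO D14, 2914 to 3019 in control and 2296 to 2583 in WT D14. Every KO D14 sum was above every control and WT D14 sum. KO replicate 1 was the lowest KO library for 23 of the 30 members and replicate 2 the highest for 23. Of 5 tested genes of brown adipocytes Dio2, which activates thyroid hormone, was higher (0.82) and Ppargc1a lower, and Ucp1 was listed at 0 in all but 1 of the 6 libraries. The leptin gene Lep was under the filter at 0.54, 1.59 and 1.26 TPM in KO D14 and 0.13, 0.13 and 0.99 TPM in control.

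Markers of nerve, another tissue that can accompany muscle, varied by library in the same order. Schwann cell and nerve genes had no call among 12 tested, with medians of -0.19 for KO D14 minus control, -0.66 for WT D14 minus control and 0.55 for KO D14 minus WT D14, and their summed TPM was 169 to 625 in KO D14, 427 to 631 in control and 136 to 296 in WT D14. KO replicate 1 was the lowest and KO replicate 2 the highest KO library for all 12. Replicate 1 was also the lowest KO library for 18 of 20 FAP and fibroblast, 16 of 20 vessel and 12 of 13 leukocyte genes. It was the highest for 8 of 9 slow fibre and 11 of 13 mitochondrially encoded genes. A low replicate 1 was thus not particular to fat and nerve genes. The part of nerve or of fat lying around the muscle in the adipocyte result was not tested.

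**Figure D4:**
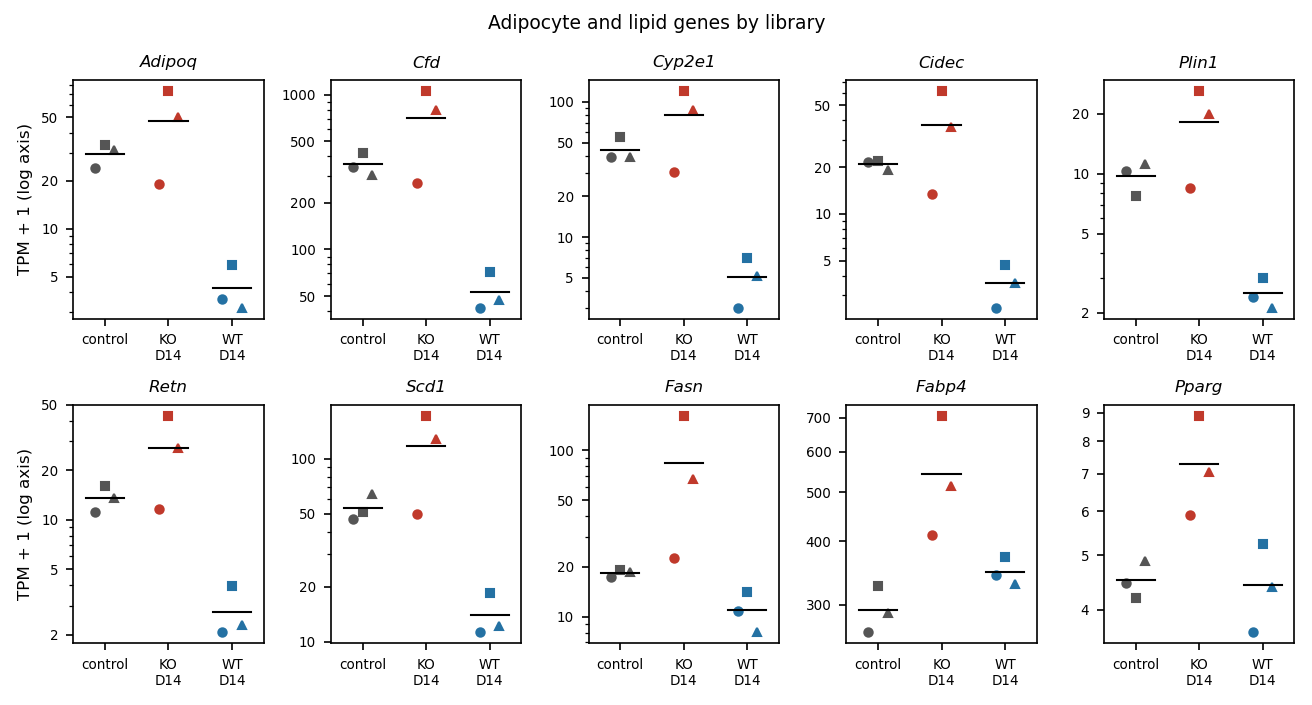
TPM + 1 on a log axis for 10 adipocyte or lipid genes in each library (circle, square and triangle are replicates 1 to 3, the bar is the mean). Adipoq, Cfd, Cyp2e1, Cidec, Plin1, Retn and Scd1 are lowest in the 3 WT D14 libraries and overlap between KO D14 and control, whereas Fasn, Fabp4 and Pparg are above control in every KO D14 library, and replicate 1 is the lowest KO D14 library for all 10 genes.

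KO D14 and WT D14 stood in the same table, and 15 of 11843 genes (0.127%) were called between them, 14 higher in KO D14 (0.118%) and 1 lower. Of the 15, 7 were members of the adipocyte list, and the other 8 were not. Over the 30 adipocyte members tested these 7 were called higher and none lower, with a median of 0.87 against 0.09 for all genes. Cyp2e1, a cytochrome P450 that is abundant in liver and fat, was at 29.4, 119.5 and 85.9 TPM in KO D14 and at 2, 6 and 4.18 TPM in WT D14 (log2 difference 3.84, SE 0.45, adjusted p = 0.0089), with control inside the KO range at 37.9, 53.5 and 37.8 TPM. The lowest KO D14 library was above the highest WT D14 library for each of the 14 genes. Cfd (log2 difference 3.56, SE 0.41, adjusted p = 0.0089) and Adipoq (log2 difference 3.33, SE 0.41, adjusted p = 0.0113) came next among the named adipocyte genes. The hormone resistin, Retn (3.17), the droplet protein Cidec (3.16), the desaturase Scd1 (2.93), Plin1 (2.73), the melanocortin receptor accessory protein Mrap (2.61), Pck1, a gluconeogenic and glyceroneogenic enzyme (2.27), the haptoglobin gene Hp (2.78), Orm1 (2.53), Tmem45b (2.39), Arxes2 (1.67) and the predicted gene Gm49739 (3.38) were the other genes called higher on the log2 scale. Of 10 liver markers, 3 were tested. Between KO D14 and WT D14 1 of them, Cyp2e1, was called higher (median of the 3 members 0.85), between WT D14 and control 2 were called lower (median -1.30), and between KO D14 and control none was called (median 0.06). The summed TPM of the 10 was 68.1 to 194 in KO D14, 104 to 173 in control and 29.1 to 65 in WT D14. Without KO D14 replicate 3 the number of genes called between KO D14 and WT D14 was 5, without WT D14 replicate 1 it was 2, and without KO D14 replicate 1 it was 59.

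The gene called lower in KO D14 than in WT D14 was Dynlt1b, a dynein light chain gene with near-identical copies in a cluster. It was at 48.4, 49.8 and 48.4 TPM in KO D14, 85, 93.9 and 77.3 TPM in WT D14 and 97.7, 96.9 and 86.5 TPM in control (log2 difference -0.79, SE 0.11, adjusted p = 0.0148 for KO D14 minus WT D14, and log2 difference -0.92, SE 0.11, adjusted p = 0.00104 for KO D14 minus control). Every KO D14 library was below every library of both WT groups. Nnt, the mitochondrial transhydrogenase that C57BL/6J mice carry in a deleted form, was at 20.9, 14.9 and 17.5 TPM in KO D14, 37.5, 21.4 and 41.5 TPM in WT D14 and 45, 23.7 and 45.8 TPM in control (log2 difference -1.01, SE 0.28, adjusted p = 0.0338 for KO D14 minus control). The KO D14 libraries were the lowest for Nnt, and the difference from WT D14 did not pass the test (log2 difference -0.83, SE 0.28, adjusted p = 0.778).

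The upstream sequences of Adipoq and Plin1 are printed because both genes were called between KO D14 and WT D14, whereas neither was called between KO D14 and control. Both are the 250 bases before the RefSeq start in GRCm38.p6, Adipoq at chr16:23146286-23146535 on the plus strand and Plin1 at chr7:79732777-79733026 on the minus strand, with matches to TTGCNNAA or TATAAA on either strand in capitals.
Adipoq: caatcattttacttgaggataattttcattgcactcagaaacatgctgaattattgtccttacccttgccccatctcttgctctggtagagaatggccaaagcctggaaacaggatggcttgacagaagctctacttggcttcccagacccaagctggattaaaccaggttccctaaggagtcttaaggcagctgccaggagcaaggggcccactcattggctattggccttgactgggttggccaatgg
Plin1: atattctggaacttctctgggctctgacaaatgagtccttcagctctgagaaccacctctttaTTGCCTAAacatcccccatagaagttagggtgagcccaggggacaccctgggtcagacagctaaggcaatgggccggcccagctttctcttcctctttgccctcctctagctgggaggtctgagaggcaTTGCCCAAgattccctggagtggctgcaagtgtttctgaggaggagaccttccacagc
Plin1 held TTGCNNAA 187 and 58 bases before its start, and Adipoq held neither pattern in this window. Of the 15 genes called between KO D14 and WT D14, 8 had a promoter in the RefSeq set, and of these 2 held TTGCNNAA and 1 held TATAAA. Among all promoters of the set the shares were 9.56% and 12.4%. These shares are per promoter, whereas Cidec, which held TTGCNNAA, was scored over 2 starts.

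Stromal lists lay near or below the share of all genes in their calls. Of 20 genes of FAPs and fibroblasts, 3 were called higher and none lower, against 15.3% called higher among all genes, 7 had all KO D14 libraries above all control libraries, against 35%, and the median was 0.36 (0.15 relative). Lum, which encodes the collagen-binding proteoglycan lumican, was at 38.4, 39.1 and 46.1 TPM in KO D14, 14, 14.9 and 17.6 TPM in control and 51, 58.4 and 33 TPM in WT D14 (log2 difference 1.35, SE 0.19, adjusted p = 0.00316 for KO D14 minus control). The stem-like FAP marker Dpp4 (0.73) and the FAP marker Mme (0.60) were the other calls, and under median-of-ratios scaling 2 members were called higher and 1 lower, whereas quantile normalization gave 1 higher. Collagen and matrix genes had 4 of 26 called higher, against the same 15.3%, with a median of 0.47 (0.26 relative), and 15 members had all KO D14 libraries above control, against 35% of all genes. Mmp14, a membrane-bound matrix protease, was at 34.5, 29.2 and 33.8 TPM in KO D14 and at 12.2, 13.1 and 15.3 TPM in control (log2 difference 1.21, SE 0.33, adjusted p = 0.0322). Fn1, fibronectin (1.09), Timp1, a protease inhibitor (1.06), and Col8a1 (0.95) were also called. The number called was 1 under median-of-ratios scaling and 0 under quantile normalization. Of 14 tendon and matricellular genes, Postn was the single call, against the same 15.3%, with a median of 0.66 (0.46 relative). For 9 of the 14 all KO D14 libraries lay above all control libraries, against 35% of all genes. Comp was at 32.2, 24.8 and 32.1 TPM in KO D14 and 17.7, 7.54 and 17.3 TPM in control (log2 difference 1.09, SE 0.51, adjusted p = 0.155). WT D14 had 3 of the 26 matrix genes called higher than control, against 7.77% of all genes, and no stromal, matrix or tendon gene was called between KO D14 and WT D14.

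Few immune genes passed the test, and the lists differed in how many members lay above control. Of 13 leukocyte genes, 2 were called higher, against 15.3% of all genes, and 10 had all KO D14 libraries above all control libraries, against 35%, with a median of 0.72 (0.51 relative). Ptprc, the pan-leukocyte antigen CD45, was at 2.56, 4.79 and 2.52 TPM in KO D14 and at 0.36, 1.13 and 0.81 TPM in control (log2 difference 1.26, SE 0.28, adjusted p = 0.0161), and the leukocyte glycoprotein Cd52 was also higher (1.29). Trem2, a lipid-sensing receptor of macrophages, was at 4.62, 3.68 and 5.82 TPM in KO D14, 1.16, 0.86 and 0.56 TPM in control and 6.5, 11.6 and 1.81 TPM in WT D14 (log2 difference 1.61, SE 0.42, adjusted p = 0.0272 for KO D14 minus control). The WT D14 libraries of Trem2 spread over the whole KO range. Fabp5 (0.80) and the lysosomal lipase Lipa (0.74) completed the 3 calls among 12 lipid-associated macrophage genes (median 0.38, 0.17 relative), of which 2 were called higher and 1 lower under median-of-ratios scaling and none under quantile normalization.

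Ccr2, the chemokine receptor of recruited monocytes, was at 2.12, 4.04 and 2.07 TPM in KO D14 and at 0.43, 0.8 and 0.52 TPM in control (log2 difference 1.21, SE 0.29, adjusted p = 0.0205). Its control values were all under 1 TPM, so Ccr2 passed the filter only through the KO D14 libraries. With S100a8, a neutrophil and monocyte alarmin (0.89), Ccr2 made up the 2 calls among 7 tested genes of recruited monocytes, against 15.3% called higher among all genes. Il1b, Tnf and Il6 were among 8 listed members too low to be tested. Resident macrophage genes had no member called higher and 1 of 13 lower, the thioredoxin inhibitor Txnip (-0.49), with a median of 0.10 (-0.11 relative). All KO D14 libraries lay above control for 4 of the 13, near the 35% of all genes. Lyve1, a receptor on resident macrophages and lymphatic vessels, was at 8.17, 8.38 and 6.92 TPM in KO D14 and 6.88, 7.03 and 10.8 TPM in control (log2 difference -0.04, SE 0.32, adjusted p = 0.934). No gene of these immune lists was called between KO D14 and WT D14.

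Single antigen-presenting and interferon genes were called higher, and the share called higher among all genes was 15.3%. H2-Ab1, a class II histocompatibility gene, was at 106, 194 and 202 TPM in KO D14 and 77.6, 60.6 and 48.3 TPM in control (log2 difference 1.38, SE 0.41, adjusted p = 0.0429), and it was the single call among 6 class II genes, whose median was 1.05 (0.84 relative). No class II gene was called under median-of-ratios scaling or quantile normalization. Gbp3, an interferon-induced GTPase, was at 3.38, 7.78 and 6.96 TPM in KO D14 and 1.14, 1.63 and 1.25 TPM in control (log2 difference 1.53, SE 0.24, adjusted p = 0.00464). Ifit1 (0.89), Ifit2 (0.91) and Rsad2 were the other calls among 15 interferon-stimulated genes (median 0.55, 0.34 relative), and 1 was called under quantile normalization. KO replicate 1 was the lowest KO library for all 15. Of 13 complement genes (median 0.26, 0.05 relative), 5 had all KO D14 libraries above control, near the 35% of all genes, and Cfd was the one called between KO D14 and WT D14. Of 16 listed T and cytotoxic lymphocyte genes 2 were tested and neither was called, and the other 14 were under the filter. Ccl5 was at 1.33, 18.3 and 6.32 TPM in KO D14 and 1.7, 1.54 and 1.17 TPM in control, and of 3 B and plasma cell genes Ighm was called lower (-0.75).

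Some genes of ongoing regeneration, among them Pax7, Myh3, Myh8 and Chrng, were too low to be tested, whereas others were well expressed. Pax7, the satellite cell transcription factor, was under the filter at 0.77, 1.19 and 1.21 TPM in KO D14 and 0.52, 0.3 and 0.52 TPM in control, as were the embryonic and neonatal myosins. Myh3 was at 1.88, 0.42 and 1.02 TPM in KO D14 and 0.7, 0.41 and 0.86 TPM in control, and Myh8 was at 0.64, 0.69 and 1.08 TPM in KO D14 and 0.55, 1.21 and 0.51 TPM in control. Of 9 satellite cell and myogenic genes tested, Myf5 (0.61) and Notch3 (0.55) were called higher and none lower, against 15.3% called higher among all genes. Their median was -0.09 (-0.30 relative), and 1 was higher and 4 were lower under median-of-ratios scaling. Myog, the differentiation factor myogenin, was at 3.53, 5.47 and 5.71 TPM in KO D14 and 8.82, 10.8 and 7.65 TPM in control (log2 difference -0.79, SE 0.25, adjusted p = 0.055). All 3 KO D14 libraries of Myog were below all 3 control libraries, and the difference just missed the threshold. Xirp1, an actin-binding protein of remodelling fibres, was lower in KO D14 (log2 difference -0.78, SE 0.24, adjusted p = 0.047) and was the single call among 9 developmental sarcomere genes. None of 13 genes of the neuromuscular junction and denervation was called by limma (median 0.01, -0.20 relative), whereas 3 were lower under median-of-ratios scaling and 2 under quantile normalization, and Chrng, the fetal acetylcholine receptor subunit, did not exceed 0.34 TPM in these 6 libraries. H19, an imprinted noncoding RNA of growing muscle, was at 767, 1138 and 1583 TPM in KO D14 and 603, 566 and 648 TPM in control (log2 difference 0.88, SE 0.23, adjusted p = 0.0265), and Igf2, its neighbour and a growth factor gene, was at 14.7, 17.2 and 17.5 TPM and 14.6, 12.9 and 12.4 TPM (log2 difference 0.28, SE 0.15, adjusted p = 0.206).

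Atrophy, stress and clock genes differed between the groups in both directions. Among all genes 15.3% were called higher and 2.4% lower. The muscle ubiquitin ligase genes Fbxo32, at 24, 28.9 and 20.3 TPM in KO D14 and 51.1, 46.7 and 43.9 TPM in control (log2 difference -0.94, SE 0.16, adjusted p = 0.007), and Trim63 (log2 difference -0.75, SE 0.18, adjusted p = 0.0213), together with Fbxo40 (-0.78) and Pdk4, the kinase that restrains glucose oxidation (-0.79), were called lower. Ddit4 and Fbxo30 were called higher, which made 2 higher and 4 lower among 16 genes of fasting, glucocorticoid response and atrophy (median -0.06, -0.27 relative). In WT D14, 1 of the 16 was called higher and 4 lower than control (median -0.17), against 7.77% and 3.45% of all genes. None of the 16 was called between KO D14 and WT D14. Fkbp5, a glucocorticoid target, was at 30.4, 7.96 and 12.4 TPM in KO D14 and 19.7, 15.3 and 19.5 TPM in control (log2 difference -0.29, SE 0.48, adjusted p = 0.689), with KO replicate 1 above and the other KO libraries below the control range. Of 18 immediate early and Klf genes, 8 were called higher and none lower (median 0.43, 0.23 relative), and 7 or 8 were called higher under each scaling. Klf6 was at 16.1, 22.5 and 19.3 TPM in KO D14 and 4.16, 7.43 and 6.52 TPM in control (log2 difference 1.55, SE 0.20, adjusted p = 0.00232). Klf4 was at 25, 23.6 and 27.8 TPM in KO D14 and 9, 8.19 and 11.5 TPM in control (log2 difference 1.34, SE 0.20, adjusted p = 0.00416), and Klf2 (1.35) and the mRNA decay factor Zfp36 (1.00) were also called. WT D14 had 6 of the 18 called higher than control, against 7.77% of all genes.

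The circadian clock runs on activators such as Arntl and repressors such as the Per and Nr1d genes, whose levels depend on the hour of collection, which was not given in the sources used here. Of 16 clock genes 6 were called higher and 1 lower (median 0.31, 0.10 relative), against 15.3% and 2.4% of all genes, with 3 higher and 2 lower under median-of-ratios scaling. Dbp, a clock output gene, was at 52.5, 87.1 and 72.2 TPM in KO D14, 41.1, 45.2 and 24.5 TPM in control and 78.1, 97.2 and 85.2 TPM in WT D14 (log2 difference 0.93, SE 0.23, adjusted p = 0.0218 for KO D14 minus control). Per3 (1.04) and Ciart (1.18) were higher, and the repressor Nr1d1 was lower at 47.2, 58.5 and 60.6 against 100.3, 79.9 and 85.1 TPM (log2 difference -0.67, SE 0.16, adjusted p = 0.0182). Arntl, which encodes BMAL1, was at 6.32, 6.38 and 6.52 TPM in KO D14 and 10.4, 7.91 and 12.3 TPM in control (log2 difference -0.58, SE 0.24, adjusted p = 0.112). None of the 16 was called between KO D14 and WT D14.

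Among genes of gasdermin and caspase signalling, 2 of 11 tested were called higher and none lower (median 0.49, 0.28 relative), near the 15.3% called higher among all genes. Pycard, the inflammasome adaptor ASC, was at 1.4, 1.45 and 3.37 TPM in KO D14 and 0.42, 0.31 and 0.25 TPM in control (log2 difference 1.16, SE 0.32, adjusted p = 0.0338). Its control values were all under 1 TPM, so Pycard passed the filter only through the KO D14 libraries. Gsdmd, the related pore-forming gasdermin, was at 4.48, 7.68 and 4.47 TPM in KO D14 and 2.54, 3.75 and 4.11 TPM in control (log2 difference 0.53, SE 0.23, adjusted p = 0.128). The membrane repair genes Dysf, which encodes dysferlin (log2 difference -0.47), and Capn3, a muscle calpain (-0.57), were the 2 called lower among 13, with none higher, against 2.4% called lower among all genes. Every KO D14 library of Pycard and Gsdmd was above every control library, as was the case for 5 of the 11 genes and for 35% of all genes. None of the 11 genes was called between KO D14 and WT D14.

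**Figure D5:**
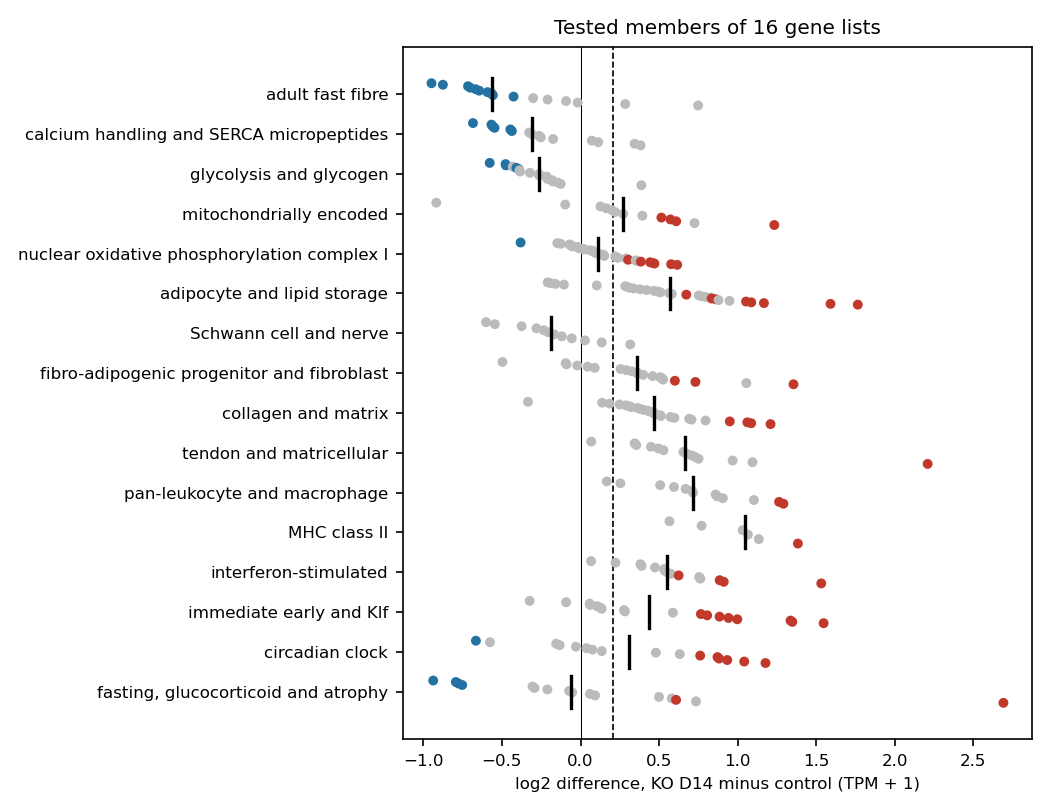
Log2 differences between KO D14 and control for the tested members of 16 gene lists, with members called higher in red, called lower in blue and not called in grey, list medians as black bars, 0 as a solid line and the median of all genes (0.21) as a dashed line. Calls are on the lower side for adult fast fibre, calcium handling and glycolysis genes. On the higher side, 8 of 30 adipocyte and 8 of 18 immediate early genes are called, against 15.3% of all genes. So are 4 of 13 mitochondrially encoded, 4 of 15 interferon-stimulated and 6 of 16 clock genes, with 1 clock gene called lower. Of 26 collagen and matrix genes 4 are called higher, near the 15.3% of all genes.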

How the data were processed

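Muscle was frozen and mRNA libraries were made per the labels. Per the study's methods, RNA of the time course was extracted with TRIzol and treated with DNase I, and libraries were sequenced as paired ends on an Illumina instrument. The authors deposited TPM per gene, 1 table for control and WT D1 and another for the WT and KO time course. The build in the submitters' processing notes is mm10, and the aligner and counter were not given in the sources used here. TPM holds no depth, so the counting precision of a value is unknown. The tables were joined on Ensembl IDs (436 and 261 unnamed assembled entries could not be joined). Genes with at least 1 TPM in at least 3 of 6 columns and WT D1 means within 20% between tables were kept. For the 11843 genes, limma 3.58.1 in R 4.3.3 was fitted to log2(TPM + 1) of 9 libraries in 3 groups with an intensity trend, and p-values were two-sided and adjusted by Benjamini-Hochberg over all genes (threshold 0.05). The script was tested on simulated data. The study states no test for these tables. Alternatives covered scaling, pseudocount (0.1), filters, libraries in the fit, quality weights, a replicate block and left-out libraries. The genes named were the 15 largest rises and 15 largest falls that were called with and without the table shift of WT D1 removed, did not overlap and reached 5 TPM, all genes called between KO D14 and WT D14, a set of fixed genes, and examples from the gene lists chosen after their values were seen. Some genes that these rules select are not reported here. The libraries, lists and tests were chosen with earlier results of these data known. Promoters were taken from RefSeq (GRCm38.p6).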

Additional observations from a re-analysis of the deposited data

Results flagged for a closer look

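The comparison of KO D14 with control and that of WT D14 with control share their control libraries, and the difference between them, KO D14 minus WT D14 in log2(TPM + 1), passed the limma test for 15 genes. The adipocyte genes among them were Cfd (3.56), Adipoq (3.33), Retn (3.17), Cidec (3.16), Scd1 (2.93), Plin1 (2.73) and Pck1 (2.27). The other genes higher in KO D14 were Cyp2e1 (3.84), Gm49739 (3.38), Hp (2.78), Mrap (2.61), Orm1 (2.53), Tmem45b (2.39) and Arxes2 (1.67). The gene lower in KO D14 was Dynlt1b (-0.79). KO replicate 1 was the lowest KO library for each of the adipocyte genes Cfd, Adipoq, Retn, Cidec, Scd1 and Plin1. Groups of 3 libraries are too small for the check on single outlying samples.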

How the results depend on the processing

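The number of genes called between KO D14 and control was 1275 under quantile normalization, 897 without the filter on low values, 1274 with at least 5 TPM in at least 3 columns and 517 with all 27 libraries in the fit. Of these, 558, 733, 1036 and 441 were higher, and 717, 164, 238 and 76 were lower. Median-of-ratios scaling gave 954 higher and 1101 lower, removal of the 50 most abundant genes 476 lower, and library quality weights 544 lower. Leaving out 1 library gave 574 to 2473 calls, with 476 to 2174 higher and 90 to 314 lower. Between KO D14 and WT D14 the count was 0 by limma without the low filter (1238 of 24607 genes at an unadjusted p under 0.05), 3 with all 27 libraries, and 2 to 59 with 1 library left out. Between WT D14 and control it was 449 without the low filter, 332 with all 27 libraries, 2271 with quality weights and 265 to 1801 with 1 library left out.

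The relative median of the fast fibre list was -0.42 under quantile normalization and, over the 4 of its 16 members that were left, -0.45 without the 50 most abundant genes, where 2 of these 4 were called lower. Over the whole list that number was 4 without the low filter and 0 with all 27 libraries. Adipocyte members called higher than control numbered 3 under median-of-ratios scaling, 3 under quantile normalization, 3 without the low filter and 3 with all 27 libraries, and 2 to 20 with 1 library left out. Adipocyte members called higher than in WT D14 numbered 0 without the low filter, 1 with all 27 libraries and 0 to 16 with 1 library left out, the lowest without WT D14 replicate 1 and the highest without KO D14 replicate 1. The cause of these changes was not tested, other than the shorter list named for the 50 most abundant genes.

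Lyve1 moved to 0.17 with the WT D1 shift between the tables removed, and Myh7 to -0.13 under median-of-ratios scaling and -0.054 with quality weights. Leaving out 1 library changed the sign of KO D14 minus control for Gsdme (-0.17 to 0.028), Fkbp5 (-0.80 to 0.11), Lyve1 (-0.15 to 0.15), Myh7 (-0.70 to 0.61) and Sln (-0.30 to 0.73), none of which was called. Of 160 gene differences named in the text, not counting that of Gsdme, 156 kept their sign under every alternative run. Of the same 160, 108 were called as reported and not called under at least 1 alternative.

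Replicate numbers of different groups did not pair the libraries, since deviations from the group means correlated at -0.18 to 0.19. With the replicate block 1766 genes were called between KO D14 and control, 20 between KO D14 and WT D14 and 1077 between WT D14 and control. The tables used hold TPM alone, so the depth behind low genes is unknown.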

Other observations

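Adult haemoglobin genes, which mark red blood cells in the tissue, were higher in KO D14 than in control. Hbb-bs was at 945, 1237 and 1594 TPM in KO D14, 571, 724 and 478 TPM in control and 804, 859 and 955 TPM in WT D14 (log2 difference 1.08, SE 0.19, adjusted p = 0.00772 for KO D14 minus control). Hba-a1 (1.03), Hba-a2 (0.87) and Hbb-bt (1.17) were the other calls among 14 iron and heme genes, none of which was called lower, whereas 3 were higher and 1 lower under median-of-ratios scaling. These near copies may share reads. Vessel genes had 2 of 20 called higher, the pericyte gene Rgs5 (1.36) and the junction gene Esam (0.59), with a median of 0.31 (0.10 relative). Both counts stand against 15.3% called higher among all genes.

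Ctss, a cathepsin of antigen-presenting cells, was at 25.6, 31.7 and 27.4 TPM in KO D14 and 10.9, 8.06 and 8.76 TPM in control (log2 difference 1.52, SE 0.37, adjusted p = 0.0201). With Lamp2 (0.89) it made up the 2 calls among 19 lysosomal genes, whereas 2 were higher and 4 lower under median-of-ratios scaling. The counts as reported in this paragraph stand against 15.3% called higher and 2.4% called lower among all genes. Those under median-of-ratios scaling stand against 954 higher and 1101 lower of the 11843 genes. Of 10 cell cycle genes tested, the replication genes Mcm3 (0.65), Pcna (0.47) and Mcm5 (0.45) were called higher and the mitotic kinase gene Aurka lower (-0.99), and under median-of-ratios scaling 1 was higher and 1 lower. The cholesterol synthesis genes Idi1 (0.78) and Mvd (0.54) were the 2 calls among 16, with 1 higher and 1 lower under median-of-ratios scaling. The chaperone gene Hspa8 was the single call among 16 heat shock genes (-0.46), of which 3 were lower under that scaling. Igfbp7, a binding protein of the insulin-like growth factor axis (0.73), was called higher together with H19 among 19 genes, with 1 higher and 3 lower under that scaling, and no epidermis marker was called among 2 tested.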
